A study of Mus musculus with 8 samples.

Results

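The genes described here are 36 genes of protein folding and stress signalling in the endoplasmic reticulum (ER), taken as a list by function from the 25124 genes of the deposited table. They comprise 8 sensors, transcription factors and feedback genes, 12 chaperones and co-chaperones, 4 disulfide isomerases, 9 genes of ER-associated degradation and 3 genes of the translocon, the pore through which new proteins enter the ER. Of the 36, 32 averaged 10 or more normalized counts across libraries and were tested, as were 7512 of all genes. The 4 below that level were Ern1, Ddit3, Trib3 and Derl3. The members tested were more abundant than the average gene: 23 of them (71.9%) had a mean of at least 50 normalized counts, against 24.0% of all genes tested.

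RNA was measured in cells labelled as airway epithelial cells, sorted by flow cytometry from lungs of C57BL/6 mice. The mice were STAT3-WT (WT) or STAT3-cKO (cKO, a conditional deletion of STAT3, a transcription factor switched on by cytokines). Each genotype received house dust mite (HDM), an allergen, or phosphate-buffered saline (PBS), and each of the 4 groups (WT PBS, WT HDM, cKO PBS and cKO HDM) had 2 libraries. The sources used here do not state the Cre driver, the cells in which STAT3 was deleted, the HDM schedule, or the age and sex of the mice. Nor do they say that the 2 libraries of each group are from different mice, so the spread behind the p-values can be technical.

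The unfolded protein response is the set of signals by which a cell adjusts its ER when unfolded protein accumulates there. Its 3 sensors sit in the ER membrane: IRE1 (gene Ern1), an RNase that splices Xbp1 mRNA; PERK (Eif2ak3), a kinase that slows translation and favours production of ATF4; and ATF6, which is cleaved to release a transcription factor. Their targets include chaperones such as BiP (Hspa5), disulfide isomerases, and the machinery that draws misfolded protein back to the cytosol for degradation. Airway epithelium secretes mucins and other proteins that fold in the ER, and mucus production increases under allergen. The table counts reads per gene, so it shows neither Xbp1 splicing nor the activation of the sensors.

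The DNA elements through which these factors act are known. They are shown here because several of the members with the smallest p, Hspa5, Calr, Pdia6 and Herpud1, carry them. Others with an unadjusted p under 0.05 (limma) in some comparison carried none of the elements searched for. These included Xbp1, Atf4, Ssr1, Dnajb9, Sdf2l1, Pdia4, Sec61b and Sel1l. Windows from 250 bases before to 50 after the start site were found for 31 of the 36 members in RefSeq promoter sequence (GRCm38.p6, the mm10 chromosomes). Atf6, Hyou1, Manf, Derl1 and Sec61a1 had no window. The ER stress element (ERSE), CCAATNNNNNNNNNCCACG on either strand, was present in 9 of the 31 (Hspa5, Hsp90b1, Dnajc3, Creld2, Calr, Canx, Pdia6, Syvn1 and Derl3) and in 0.119% of 32851 windows of all genes. The related element ERSE-II, ATTGGNCCACG, was present in Dnajb11 and Herpud1 and in 0.0365% of all windows. The shorter UPRE core TGACGTGG was found in Vcp (0.676% of all windows), the cAMP response element TGACGTCA in Ppp1r15a (1.79%), and TGATGNAA, the C/EBP-ATF element (CARE) bound by ATF4, in Trib3 and Herpud1 (3.97%). A match describes these letters only and shows no binding.

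In the sequences that follow, capitals mark the elements, and positions are counted from the start site, with negative numbers before it and 0 at the site itself. The first 5 belong to chaperones, an isomerase and a co-chaperone (Dnajc3). Creld2 and Canx are further ERSE carriers, and the last sequence belongs to the member of smallest p between genotypes. The carriers Syvn1, Derl3 and Dnajb11 are not shown.
Hspa5 (chr2:34772017-34772051, plus strand, -73 to -39): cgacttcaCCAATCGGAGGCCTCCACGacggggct
Hsp90b1 (chr10:86705525-86705664, minus strand, -220 to -81): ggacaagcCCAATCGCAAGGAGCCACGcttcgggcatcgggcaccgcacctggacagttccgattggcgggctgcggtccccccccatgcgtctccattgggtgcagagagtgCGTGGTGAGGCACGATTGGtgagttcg
Calr (chr8:84847067-84847101, minus strand, -170 to -136): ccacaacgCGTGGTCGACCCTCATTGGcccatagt
Pdia6 (chr12:17266483-17266517, plus strand, -106 to -72): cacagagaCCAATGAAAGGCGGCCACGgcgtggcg
Dnajc3 (chr14:118937819-118937853, plus strand, -113 to -79): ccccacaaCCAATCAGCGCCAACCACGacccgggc
Creld2 (chr15:88819512-88819546, plus strand, -134 to -100): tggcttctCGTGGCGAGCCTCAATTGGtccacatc
Canx (chr11:50325792-50325826, minus strand, -153 to -119): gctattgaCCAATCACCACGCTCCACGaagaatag
Herpud1 (chr8:94386309-94386395, plus strand, -120 to -34): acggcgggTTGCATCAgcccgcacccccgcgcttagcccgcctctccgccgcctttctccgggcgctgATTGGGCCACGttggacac
Hsp90b1 carried the ERSE in both orientations, 1 copy each way. Calr and Creld2 carried it only in the reverse orientation, in which it reads CGTGG first. In Herpud1 the capitals mark a reversed CARE and, nearer the start site, the ERSE-II.

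Libraries were shallow, with 232556 to 593200 reads each, and 3 reads, the limit that a count of 0 allows, equal 1.96 to 4.88 normalized counts. Epithelial and airway markers (Epcam, Cdh1, Scgb1a1, Foxj1) were present in every library. The WT HDM pair stood apart: the 4 epithelial markers took 0.246% and 0.271% of reads there against 0.311% to 0.357% in the other 6 libraries, and markers of other cells differed too. The summed share of 7 alveolar type 2 markers was 2.29% and 3.22% of reads there against 1.08% to 1.47% in the other 6 libraries, that of 9 endothelial markers 0.256% and 0.271% against 0.0493% to 0.0899%, and that of 7 fibroblast and smooth muscle markers 0.306% and 0.309% against 0.00903% to 0.0288%. The 6 macrophage and dendritic cell markers reached 0.0130% and 0.0299% against at most 0.00146%, while 5 ciliated cell markers were at 0.190% and 0.203% against 0.274% to 0.407%. These differences move with every comparison that uses WT HDM, and their part in the results was not tested. Stat3, the targeted gene, stood at 75.8 and 40.9 normalized counts in the WT PBS libraries, 134 and 157 in WT HDM, 56.9 and 96.5 in cKO PBS, and 76.9 and 92.2 in cKO HDM. The cKO libraries thus held Stat3 reads at levels overlapping those of WT PBS; reads outside the deleted part would still be counted, and the sources used here do not name the deleted exons.

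The 36 genes together took a larger share of reads in every HDM library than in any PBS library. Their share was 0.884% and 0.830% in WT PBS, 1.12% and 1.09% in WT HDM, 0.917% and 0.984% in cKO PBS, and 1.06% and 1.09% in cKO HDM. The chaperones made up the largest part of it, with 0.449% and 0.363% in WT PBS, 0.622% and 0.594% in WT HDM, 0.423% and 0.511% in cKO PBS, and 0.538% and 0.543% in cKO HDM. ER-associated degradation showed another order, with 0.136% and 0.154% in WT PBS, 0.135% and 0.125% in WT HDM, and 0.156% to 0.176% in the 4 cKO libraries. That order came with Herpud1, which gave 26.6% to 32.7% of the degradation reads in cKO and 14.6% to 20.1% in WT. Without Herpud1 the degradation share was 0.107% to 0.129% in WT and 0.115% to 0.127% in cKO, so the genotypes overlapped. In bulk RNA, fewer cells of a type and less RNA per cell cannot be told apart.

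**Figure D1:**
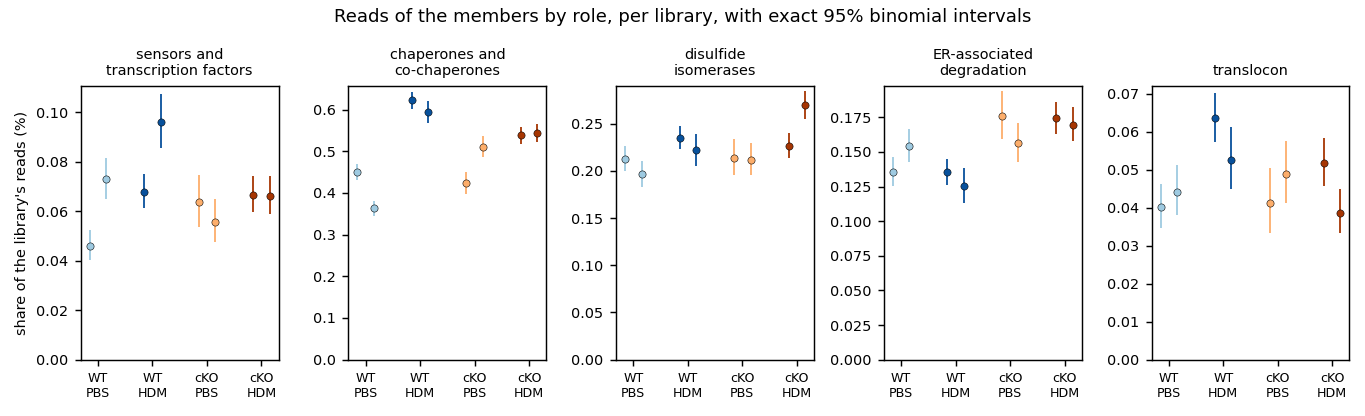
Share of each library's reads (%) taken by the members of each role, 1 point per library with its exact (Clopper-Pearson) 95% binomial interval, which covers counting error only. The chaperone share was 0.594% and 0.622% in WT HDM and 0.363% and 0.449% in WT PBS, and the degradation share was at least 0.156% in all 4 cKO libraries with Herpud1 and 0.115% to 0.127% without it, within the WT range.

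On a scale of normalized counts per kilobase of exon, which allows genes to be compared, the most abundant members were Calr (118 averaged over the 8 libraries), Hspa5 (108), Pdia3 (103), Hsp90b1 (95.8) and P4hb (95.5). Herpud1 followed at 57.8, and Os9, Canx, Pdia4 and Pdia6 lay between 40.9 and 47.8. Each neighbouring pair among the first 5 overlapped in its library values. The sensors were low, at 6.57 per kilobase for Atf6, 3.62 for Eif2ak3 and 0.794 for Ern1. The stress-induced genes Ddit3 (1.58) and Trib3 (0.272) were lower or near them, and Derl3, a degradation gene of secretory cells, had no read in any of the 8 libraries.

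In WT mice, HDM libraries held higher values of the chaperones Hspa5, Hsp90b1 and Calr and of Xbp1 than PBS libraries, but no member passed the test. Differences are given as log2 of (value + 1) with their standard error from limma, so 1 is a doubling of that quantity, and passing means an adjusted p (Benjamini-Hochberg over the 7512 genes) under 0.05. Of the 32 members, 24 had a positive difference, as had 3645 of all 7512 genes tested. The members' median was 0.41, against -0.03 over all genes tested. With limma, 0 members passed (0.519% of all genes did). At an unadjusted p under 0.05, 9 members were higher (4.5% of all genes were) and 0 were lower (4.43%). DESeq2 on the recovered reads called 3, Hspa5, Calr and Xbp1 (1.78% of all genes), and edgeR called 0 (0.785%).

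Hspa5 (chr2:34771970-34777547) encodes BiP, the central chaperone of the ER and the brake on all 3 sensors. Its level was 348 and 251 normalized counts in the WT PBS libraries, 559 and 678 in WT HDM, 409.9 and 417 in cKO PBS, and 493 and 503 in cKO HDM. The WT HDM libraries were the highest of the 8 and the WT PBS libraries the lowest, with both cKO groups between them. The log2 difference for HDM was 1.06 ± 0.23 in WT (limma, adjusted p = 0.0541; DESeq2, adjusted p = 0.00117; range over the other settings 0.00117 to 0.183) and 0.27 ± 0.23 in cKO (limma, adjusted p = 0.785). The difference between these, the interaction, was -0.79 ± 0.32 and did not pass (limma, adjusted p = 0.593).

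Calr (chr8:84841850-84846934), calreticulin, is a calcium-binding chaperone that holds glycoproteins during folding. Calr measured 253 and 206 normalized counts in the WT PBS libraries, 508 and 404 in WT HDM, 335 and 334 in cKO PBS, and 323 and 349 in cKO HDM. Both WT HDM libraries were above the other 6 and both WT PBS libraries below them, with the 4 cKO libraries in a narrow band between. Its HDM difference was 0.98 ± 0.23 in WT (limma, adjusted p = 0.0934; DESeq2, adjusted p = 0.00496; other settings 0.00496 to 0.216) and 0.00 ± 0.23 in cKO, with a 95% interval of -0.49 to 0.50. Its interaction of -0.98 ± 0.33 had the smallest p of any member and did not pass the correction (limma, adjusted p = 0.517). Canx, the membrane-bound relative of Calr with an ERSE of the same kind, had differences of -0.11 ± 0.31 in WT and 0.26 ± 0.31 in cKO.

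Hsp90b1 (chr10:86690209-86705509), the HSP90 of the ER lumen, stood at 301 and 331 normalized counts in the WT PBS libraries, 490.4 and 453 in WT HDM, 312 and 359 in cKO PBS, and 411 and 434 in cKO HDM. All 4 HDM libraries exceeded all 4 PBS libraries. The difference was 0.58 ± 0.22 in WT (limma, adjusted p = 0.414) and 0.33 ± 0.22 in cKO (limma, adjusted p = 0.722). Its exons share 415 bases with a pseudogene on the opposite strand, 1810014B01Rik, whose own mean was 1.24 normalized counts. Hyou1, the exchange factor of BiP, and Dnajb11, a BiP co-chaperone, had WT differences of 0.96 ± 0.42 and 0.97 ± 0.43, which ranged from 0.49 to 1.43 and from 0.55 to 1.40 with 1 library left out.

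**Figure D2:**
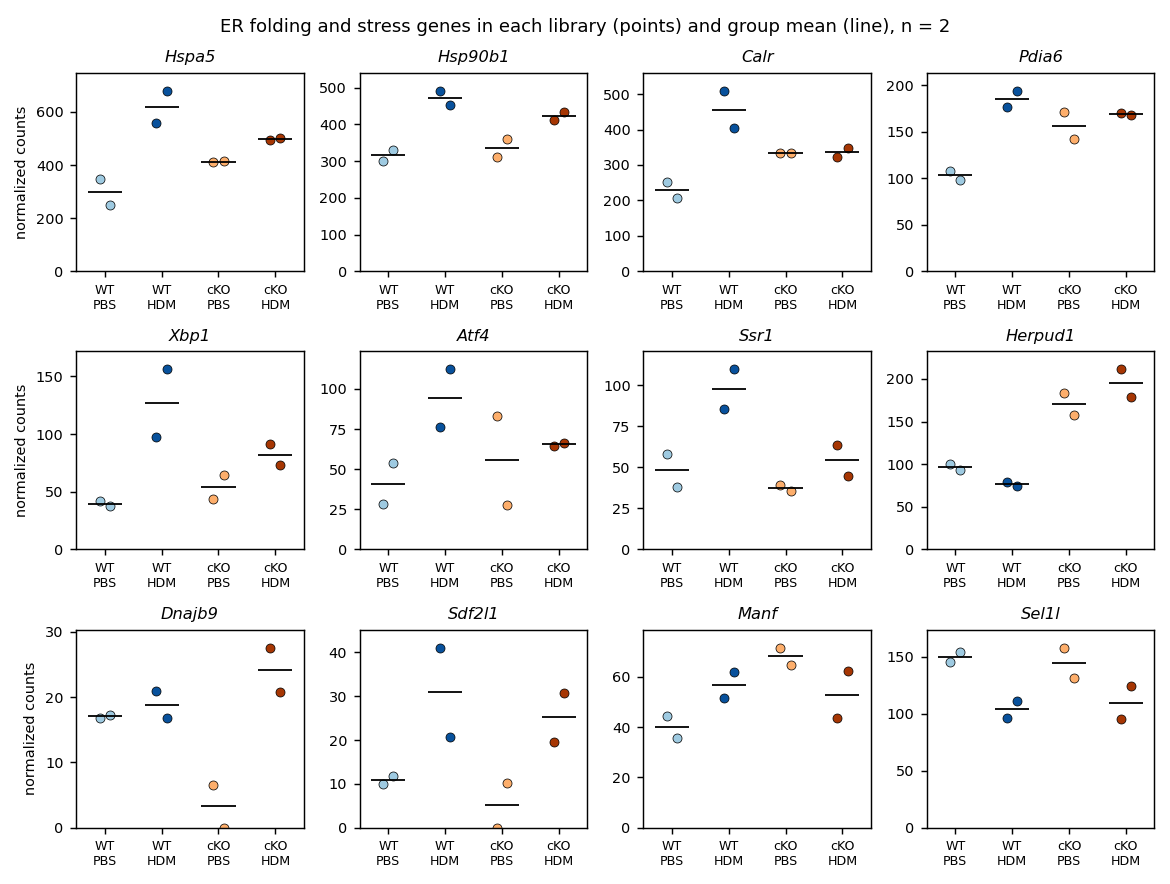
Normalized counts of 12 members in each library (points) with the group mean (line), 2 libraries per group, each panel from 0 on its own scale. Hspa5, Hsp90b1, Xbp1 and Sdf2l1 had all 4 HDM libraries above all 4 PBS libraries, Sel1l had all 4 below, and Herpud1 had all 4 cKO libraries above all 4 WT libraries.

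The sensors and their transcription factors gave mixed values. Xbp1 (chr11:5520659-5525893), the factor activated by IRE1 and itself a target of ATF6, had 42.1 and 37.3 normalized counts in the WT PBS libraries, 97.2 and 156 in WT HDM, 43.9 and 64.8 in cKO PBS, and 91.4 and 73.1 in cKO HDM. Each HDM library was above each PBS library, and WT HDM replicate 2 was the highest. The difference was 1.61 ± 0.39 in WT (limma, adjusted p = 0.0990; DESeq2, adjusted p = 0.0185; other settings 0.0114 to 0.223) and 0.61 ± 0.39 in cKO (limma, adjusted p = 0.718).

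Atf4, the factor translated when PERK or a related kinase is active, measured 28.3 and 53.7 normalized counts in the WT PBS libraries, 76.3 and 112 in WT HDM, 83.0 and 27.9 in cKO PBS, and 64.6 and 66.4 in cKO HDM. The 2 cKO PBS libraries lay far apart, and the WT difference of 1.22 ± 0.50 did not pass (limma, adjusted p = 0.480). Atf6 was at 54.3 and 87.3 normalized counts in the WT PBS libraries, 35.2 and 76.1 in WT HDM, 60.2 and 53.3 in cKO PBS, and 51.5 and 67.3 in cKO HDM, with differences of -0.40 ± 0.44 in WT and 0.05 ± 0.44 in cKO. Its WT groups overlapped.

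PERK mRNA (Eif2ak3) was 8.42 and 45.5 normalized counts in the WT PBS libraries, 13.0 and 38.7 in WT HDM, 13.0 and 36.8 in cKO PBS, and 10.9 and 8.31 in cKO HDM, so that the libraries of a group differed more than the groups did except in cKO HDM, where both were low. IRE1 mRNA (Ern1) was 9.19 and 6.37 normalized counts in the WT PBS libraries, 11.1 and 5.16 in WT HDM, 0 and 16.5 in cKO PBS, and 3.63 and 0 in cKO HDM. These values stand for 0 to 17 reads per library. Ddit3, which encodes the stress factor CHOP, was 9.95 and 0 normalized counts in the WT PBS libraries, 1.96 and 0 in WT HDM, 9.76 and 0 in cKO PBS, and 0 and 0 in cKO HDM. Neither Ern1 nor Ddit3 had enough reads for a comparison, and 1 library of each PBS group carried all of the Ddit3 reads of that group. Trib3, a target of ATF4 and CHOP, had reads in 2 of 8 libraries at up to 3.32 normalized counts. Ppp1r15a, the phosphatase subunit that ends the PERK signal, ranged from 5.16 to 42.7 with overlapping groups.

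**Figure D3:**
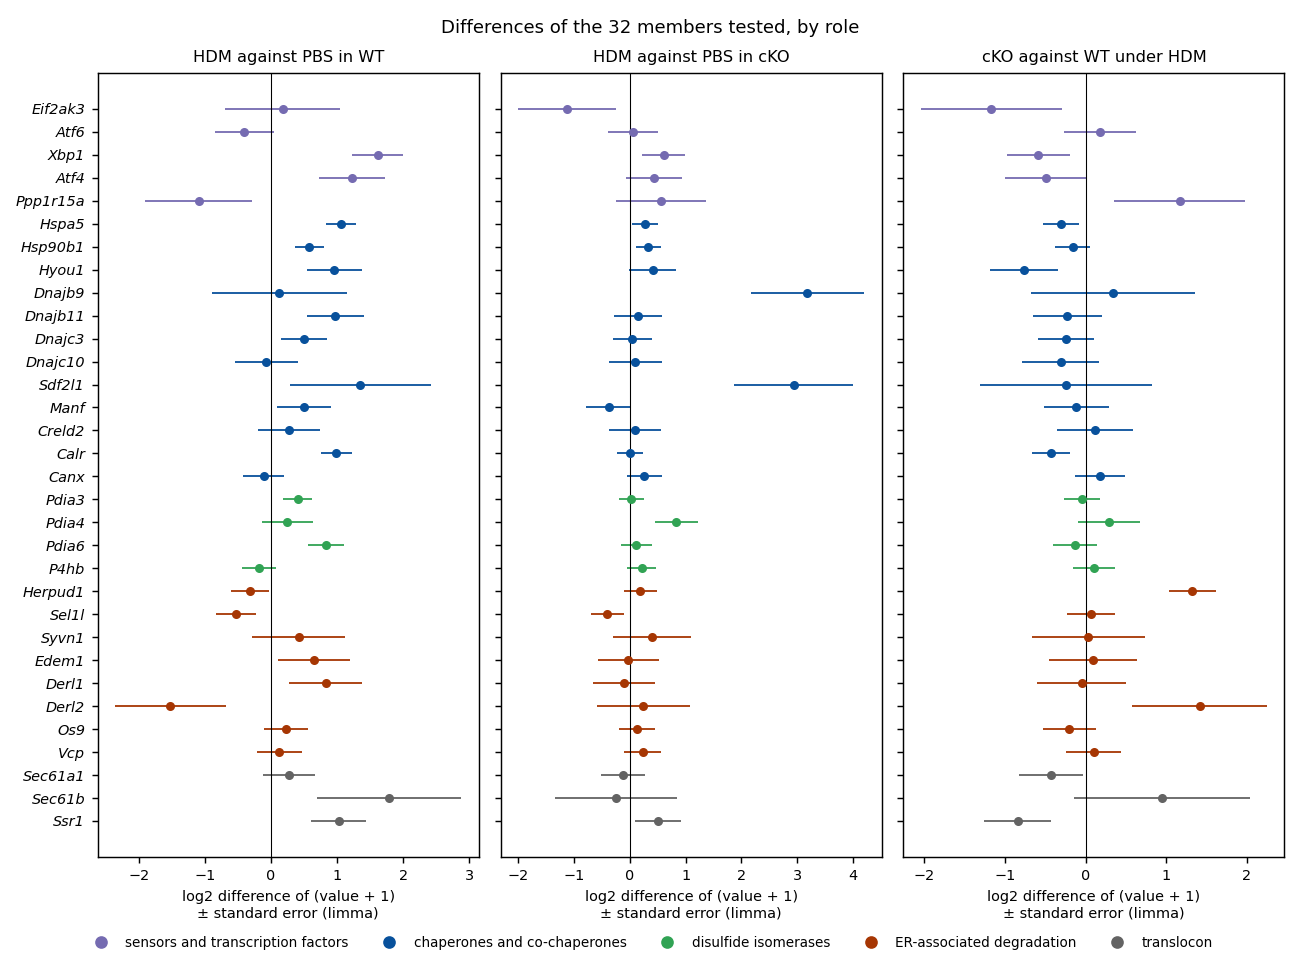
Log2 differences of (value + 1) with their limma standard errors for the 32 members tested, coloured by role, for HDM against PBS in WT, in cKO, and for cKO against WT under HDM. In WT the largest differences relative to their errors were those of Hspa5, Calr and Xbp1 (1.06, 0.98 and 1.61), and under HDM Herpud1 at 1.32 was the member farthest from 0 for its error.

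In cKO mice the members of smallest p for HDM were other genes, Dnajb9, Sdf2l1 and Pdia4. Of the 32, 25 had a positive difference, as had 4169 of all 7512 genes. The members' median was 0.17 against 0.10 over all genes. With limma 0 members passed (0.0532% of all genes did), as with edgeR (0.0532%) and DESeq2 (0.373%). At an unadjusted p under 0.05, 3 were higher (5.38% of all genes) and 0 lower (2.4%). In these 2 groups the shares of the alveolar, endothelial and fibroblast markers overlapped, for example 1.22% and 1.41% against 1.17% and 1.26% for alveolar type 2. The 3 club cell markers (Scgb1a1, Scgb3a2 and Cyp2f2) did not overlap, at 0.986% and 1.39% in cKO HDM against 2.73% and 1.91% in cKO PBS. All 3 were lower in cKO at an unadjusted p under 0.05, with a median difference of -0.90, and in WT their share was 0.922% and 1.17% under HDM against 1.56% and 1.44% under PBS. The summed share of 5 goblet cell markers was higher under HDM in both genotypes, at 0.475% and 1.09% in cKO HDM against 0.246% and 0.309% in cKO PBS. Of those reads, 88.9% and 79.7% in cKO HDM were of 1 gene, Clca1, and without it the shares overlapped (0.0528% and 0.222% against 0.171% and 0.103%). The goblet markers apart from Clca1 went both ways. The mucin Muc5b had differences of -0.18 in WT and -0.53 in cKO. The mucin Muc5ac had 2.47 ± 0.96 and 1.31 ± 0.96, and Agr2 had 1.84 ± 1.16 and 2.79 ± 1.16. None of these differences passed with limma. Clca1 itself passed in WT, at 3.23 ± 0.46 (limma, adjusted p = 0.00337). In cKO its difference of 2.27 ± 0.46 did not pass (limma, adjusted p = 0.130). The part of club and goblet cells in these values was not tested.

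Dnajb9, a BiP co-chaperone that represses IRE1, was 16.8 and 17.3 normalized counts in the WT PBS libraries, 20.9 and 16.8 in WT HDM, 6.51 and 0 in cKO PBS, and 27.6 and 20.8 in cKO HDM. The low cKO PBS values, 4 reads in all, set it apart from the other 3 groups. Its difference was 3.19 ± 1.02 in cKO (limma, adjusted p = 0.465) and 0.13 ± 1.02 in WT, and the interaction of 3.06 ± 1.44 did not pass (limma, adjusted p = 0.638). Without cKO PBS replicate 1, which leaves only the library at 0, it passed at 4.64 (limma, adjusted p = 0.0226; 0.0226 to 0.983 over all libraries left out in turn), in a fit in which 0.719% of all genes passed. With other libraries left out the difference went down to 1.73, and with other settings it was 1.93 to 4.38.

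Sdf2l1, which works with Dnajb11 in the ER lumen, was 9.95 and 11.8 normalized counts in the WT PBS libraries, 41.1 and 20.6 in WT HDM, 0 and 10.2 in cKO PBS, and 19.6 and 30.7 in cKO HDM. All 4 HDM libraries were above all 4 PBS libraries. The difference was 2.94 ± 1.07 in cKO (limma, adjusted p = 0.537) and 1.35 ± 1.07 in WT (limma, adjusted p = 0.800). Without cKO PBS replicate 2, which leaves the library at 0, the cKO difference passed at 4.68 (limma, adjusted p = 0.00896; 0.00896 to 0.983 over all libraries left out in turn). In that fit 4.26% of all genes passed and Sdf2l1 was 1 of 32 members. Without cKO PBS replicate 1 the difference was 1.20, and other settings gave 1.77 to 4.10.

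Pdia4, a disulfide isomerase of the ER, was 71.2 and 105 normalized counts in the WT PBS libraries, 134 and 78.6 in WT HDM, 71.6 and 68.6 in cKO PBS, and 92.9 and 169 in cKO HDM. Only cKO HDM replicate 2 stood above the range of WT HDM, and the cKO difference was 0.83 ± 0.39 (limma, adjusted p = 0.635). It was 0.40 without that library and 1.26 without cKO HDM replicate 1. Among the other isomerases, Pdia6 had 103 ± 6.87 normalized counts in WT PBS (SD, n = 2) and 157 to 185 as the means of the other 3 groups, a WT difference of 0.84 ± 0.28 (limma, adjusted p = 0.302). Pdia3 and P4hb had differences between -0.18 and 0.40 in both genotypes.

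Manf and Creld2, small ER proteins that are classic targets of ER stress, gave no clear pattern. Manf was 44.4 and 35.5 normalized counts in the WT PBS libraries, 51.5 and 61.9 in WT HDM, 71.6 and 64.8 in cKO PBS, and 43.5 and 62.3 in cKO HDM, higher in both HDM libraries than both PBS libraries in WT and lower in cKO, and its interaction of -0.88 ± 0.57 did not pass (limma, adjusted p = 0.701). Creld2 was 57.4 and 29.1 normalized counts in the WT PBS libraries, 54.8 and 45.1 in WT HDM, 50.4 and 50.8 in cKO PBS, and 39.2 and 73.9 in cKO HDM, and its groups overlapped throughout. Dnajc3 and Dnajc10, further co-chaperones, had differences of 0.50 ± 0.35 and -0.07 ± 0.48 in WT.

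Averaged over genotype, all 12 chaperones had a positive HDM difference, with a median of 0.47 (0.42 after quantile normalization) against 0.04 over all genes. The 32 members had a median of 0.29, and 26 were positive. With limma 0 members passed (0.399% of all genes). At an unadjusted p under 0.05, 10 were higher (5.31%) and Sel1l alone was lower (3.14%). DESeq2 called 2, Hspa5 and Xbp1 (1.41% of all genes), and edgeR 0 (0.572%). Xbp1, Hspa5, Hsp90b1 and Sdf2l1 had all 4 HDM libraries above all 4 PBS libraries, 4 of 32 against 2.26% of all genes. Among the members only Sel1l, the adaptor of the degradation ubiquitin ligase Syvn1, had all 4 below, against 1.66%. Sel1l stood at 145 and 154 normalized counts in the WT PBS libraries, 96.5 and 111 in WT HDM, 158 and 131 in cKO PBS, and 95.1 and 124 in cKO HDM, a difference of -0.46 ± 0.21 (limma, adjusted p = 0.566). In both genotypes taken separately, 18 of 32 members (56.2%) had a positive difference, against 27.1% of all genes.

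The HDM difference was smaller in cKO than in WT for 20 of the 32 members and for 3309 of all 7512 genes. The members' median interaction was -0.31 against 0.16 over all genes. With limma 0 members passed the interaction test (0.0266% of all genes did), and edgeR (0.0932%) and DESeq2 (0.359%) called 0. At an unadjusted p under 0.05, 0 members were higher (4.31%) and 2, Calr and Hspa5, were lower (3.46%). For both, cKO PBS lay above WT PBS and cKO HDM below WT HDM. The 7 alveolar type 2 markers all had a negative interaction as well, with a median of -1.47, and so did all 8 endothelial markers tested, with a median of -2.15. The part of these cells in the values of Calr and Hspa5 was not tested.

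Herpud1 (chr8:94386438-94395377), a membrane protein that organizes the degradation complex and is strongly induced by ER stress, was the member of smallest p between genotypes. It measured 100.3 and 92.8 normalized counts in the WT PBS libraries, 79.6 and 74.8 in WT HDM, 184 and 157 in cKO PBS, and 211 and 179 in cKO HDM. All 4 cKO libraries exceeded all 4 WT libraries, under either treatment. The cKO difference was 1.32 ± 0.29 under HDM (limma, adjusted p = 0.0615; edgeR, adjusted p = 0.0483; DESeq2, adjusted p = 0.00627; range over the other settings 0.00627 to 0.165) and 0.81 ± 0.29 under PBS (limma, adjusted p = 0.694). Averaged over treatment, a comparison added after its values had been seen, it was 1.07 ± 0.21 (limma, adjusted p = 0.0595; edgeR, adjusted p = 0.0392; DESeq2, adjusted p = 0.00161; range over the other settings 0.00161 to 0.247). The HDM difference was -0.32 ± 0.29 in WT and 0.19 ± 0.29 in cKO, so Herpud1 did not follow Hspa5 and Xbp1.

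Under HDM, 14 of the 32 members were higher in cKO than in WT, as were 3818 of all 7512 genes. The members' median was -0.08 against 0.02 over all genes. With limma 0 passed (0.572% of all genes), while edgeR (0.719%) and DESeq2 (1.68%) each called Herpud1 alone. At an unadjusted p under 0.05, 1 member was higher (5.02%) and 0 lower (4.58%). Ssr1, a subunit of the translocon-associated complex, was 58.2 and 38.2 normalized counts in the WT PBS libraries, 85.4 and 109.6 in WT HDM, 39.0 and 35.6 in cKO PBS, and 63.9 and 44.9 in cKO HDM. Its WT HDM libraries were the highest, and its cKO difference under HDM was -0.84 ± 0.41 (limma, adjusted p = 0.537). That of Calr was -0.43 ± 0.23 (limma, adjusted p = 0.596) and that of Hyou1 was -0.77 ± 0.42.

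Under PBS, 17 members were higher in cKO, as were 3348 of all 7512 genes. The members' median was 0.07 against -0.09 over all genes. No gene of the table passed with limma (0%), and edgeR and DESeq2 called no gene either (0%). At an unadjusted p under 0.05, 4 members (Herpud1, Sec61b, Calr and Pdia6) were higher (2.17% of all genes) and 1, Dnajb9, was lower (4.79%). Sec61b, a subunit of the translocon pore, was 16.8 and 0 normalized counts in the WT PBS libraries, 14.3 and 12.9 in WT HDM, 48.8 and 21.6 in cKO PBS, and 35.6 and 20.8 in cKO HDM. All 4 cKO libraries lay above all 4 WT libraries, by 2.99 ± 1.09 under PBS (limma, adjusted p = 0.694) and 0.95 ± 1.09 under HDM. The value under PBS rested on WT PBS replicate 2, at 0: it was 0.91 without that library, 5.07 without WT PBS replicate 1, and 1.86 to 4.15 with other settings. The other pore subunit, Sec61a1, differed by -0.04 ± 0.40 and -0.43 ± 0.40. Dnajb9 differed by -2.72 ± 1.02 under PBS (limma, adjusted p = 0.694), by -4.17 without cKO PBS replicate 1 (limma, adjusted p = 0.0456, in a fit in which 0.706% of all genes passed) and by -1.27 without replicate 2 (limma, adjusted p = 0.453).

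Averaged over treatment, the members were evenly split by genotype, with 16 higher and 16 lower in cKO. The members' median was 0.0015 against -0.037 over all genes. With limma 0 passed (0.12% of all genes), and Herpud1 alone was called by edgeR (0.28%) and DESeq2 (0.892%). Herpud1 and Sec61b had all 4 cKO libraries above all 4 WT libraries, against 1.78% of all genes, and 0 members had all 4 below (1.98%). Of the other degradation genes tested, Sel1l, Syvn1, Edem1, Derl1, Os9 and Vcp differed by -0.15 to 0.43, and Derl2, at 3.87 to 25.7 normalized counts, by 0.53 ± 0.59.

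The fit shares 1 estimate of the spread over the 8 libraries, and the 2 cKO PBS libraries correlated least (r = 0.560 over genes, against 0.679 to 0.771 in the other groups). Without cKO PBS replicate 1, and likewise without replicate 2, Hspa5, Calr and Xbp1 passed for HDM in WT (limma, adjusted p from 0.0287 to 0.0466; 1.44% and 1.46% of all genes passed), and Herpud1 passed for genotype under HDM (limma, adjusted p = 0.0291 and 0.0300; 1.53% and 1.56% of all genes), with differences equal to those above. The group left with 1 library is then assumed to vary like the others. Without cKO PBS replicate 2, Xbp1 and Sdf2l1 passed for HDM averaged over genotype (limma, adjusted p = 0.0270 and 0.0116; 2.57% of all genes), and Herpud1 for genotype averaged over treatment (limma, adjusted p = 0.0164; 2.41% of all genes). Leaving out WT PBS replicate 2 or WT HDM replicate 2 raised the adjusted p of Hspa5, Calr and Xbp1 for HDM in WT to as much as 0.656, 0.718 and 0.883.

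The members with an ERSE or ERSE-II in their window had a median HDM difference of 0.54 in WT (10 tested, 8 positive), and those with a window but no such element had 0.23 (17 tested, 12 positive). In cKO the medians were 0.17 (10 positive of 10) and 0.23 (13 positive of 17). Herpud1, with both an ERSE-II and a CARE, had the lowest WT difference of the carriers, at -0.32. These are descriptions of small sets, with no test.

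Other genes of the pathway were followed as 6 lists, and 0 of their genes passed with limma in any of the 7 comparisons. For the counts that follow, 3645 of all 7512 genes had a positive HDM difference in WT and 4169 in cKO. The medians over all genes were -0.03 and 0.10. Among 18 other ER folding enzymes tested, 14 had a positive HDM difference in WT (median 0.27) and 11 in cKO (0.14). Ganab, a glucosidase that trims glycoproteins for calnexin and calreticulin, had 77.3 and 88.2 normalized counts in the WT PBS libraries, 139.6 and 188 in WT HDM, 91.1 and 154 in cKO PBS, and 138 and 113 in cKO HDM, a WT difference of 0.96 ± 0.33 (limma, adjusted p = 0.338). Sdf2, the paralog of Sdf2l1, was 13.8 and 22.7 normalized counts in the WT PBS libraries, 36.5 and 38.7 in WT HDM, 8.13 and 11.4 in cKO PBS, and 32.7 and 44.9 in cKO HDM, higher in all 4 HDM libraries than in the 4 PBS libraries, by 1.88 ± 0.61 in cKO (limma, adjusted p = 0.487). Tmx1, a membrane-bound thioredoxin, was 56.6 and 40.9 normalized counts in the WT PBS libraries, 33.9 and 32.2 in WT HDM, 63.4 and 86.4 in cKO PBS, and 99.4 and 92.2 in cKO HDM, and like Herpud1 was higher in all cKO than in all WT libraries, by 1.51 ± 0.39 under HDM (limma, adjusted p = 0.132).

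The targets of ATF4 and other integrated stress response genes lay on both sides of 0 under HDM, with 7 of 15 tested positive in WT (median -0.09) and 6 of 15 in cKO (-0.06). Aars, a tRNA synthetase, had the smallest p among them in WT at 1.35 ± 0.50 (limma, adjusted p = 0.405), with -0.94 ± 0.50 in cKO. Atf3, a stress-induced factor, differed by -1.89 ± 0.72 between genotypes under HDM (limma, adjusted p = 0.390). Of 17 other degradation genes tested, 5 were positive in WT (median -0.16) and 13 in cKO (0.41). Edem2, a mannosidase-like protein of degradation, was 61.2 and 67.3 normalized counts in the WT PBS libraries, 26.7 and 21.9 in WT HDM, 45.5 and 36.8 in cKO PBS, and 39.2 and 49.8 in cKO HDM, with a WT difference of -1.37 ± 0.45 (limma, adjusted p = 0.295).

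For protein translocation and N-glycosylation, 18 of 25 genes were positive under HDM in WT (median 0.43) and 11 in cKO (-0.08). The transport list from ER to Golgi had 15 of 21 positive in WT (0.22) and 12 in cKO (0.32), with Cope, a coat subunit, at 1.60 ± 0.59 in cKO (limma, adjusted p = 0.537). Of the translocation and N-glycosylation genes, Spcs1 had the smallest p in WT and was lower under HDM, at -1.88 ± 0.72 (limma, adjusted p = 0.426). Rpn1, a subunit of the oligosaccharyltransferase, was next and differed by 0.62 ± 0.29 in WT (limma, adjusted p = 0.559).

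**Figure D4:**
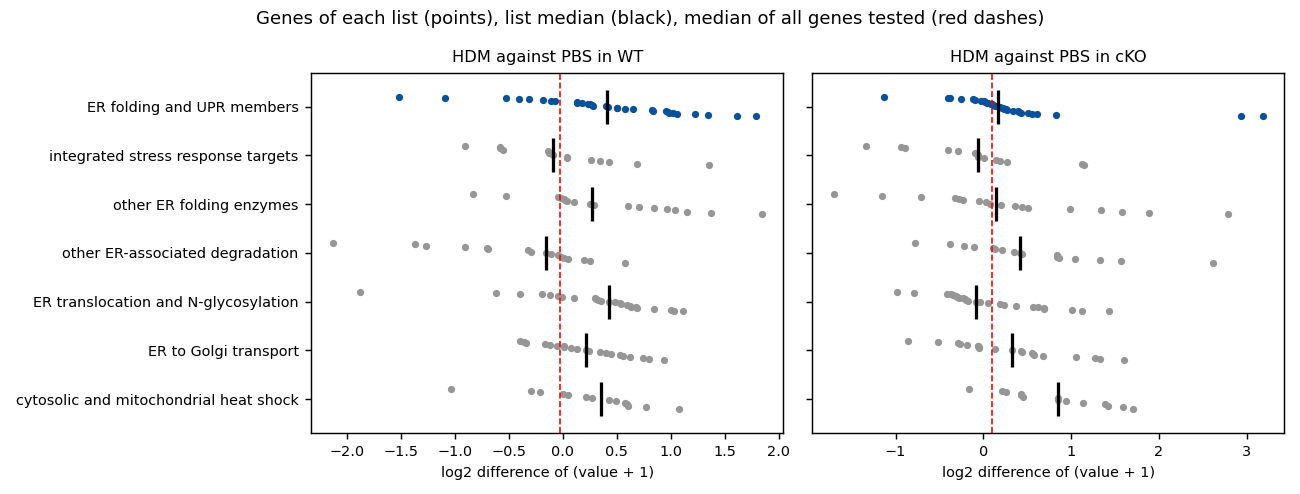
Log2 HDM differences of (value + 1) in WT and cKO for each gene tested (points) of the members and of 6 further lists, with each list's median (black line) and the median of all genes tested (red dashes, -0.03 in WT and 0.10 in cKO). The members' median was 0.41 in WT and 0.17 in cKO, and that of the heat shock list 0.35 and 0.85.

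Exons of 13 of the 36 members share bases with another annotated gene (GENCODE M21), and the sources used here do not say whether strand was used in counting, so their reads may include those of the neighbour. Among the larger overlaps, Sec61a1 shares 549 bases with Gm44170, Vcp 352 with 1700022I11Rik, Eif2ak3 485 with Gm43292 and Derl2 231 with Mis12. Hspa5, Calr, Xbp1, Herpud1, Sdf2l1, Ssr1 and Sec61b share none.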

How the data were processed

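RNA-seq libraries of sorted lung airway epithelial cells (4 groups of 2) were prepared from 1 ng of total RNA with a directional kit, per the labels' protocols. The authors deposited 1 signal value per gene and library, read counts divided by 1 factor per library, so the values are called normalized counts. HOMER, DESeq2 and mm10 are named, per the submitters' processing notes. No aligner, annotation, version or use of strand is given in the sources used here. Whole reads were recovered for 100% of values within 0.01 reads, 232556 to 593200 per library.

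Groups and replicate numbers follow the sample titles. Values were fitted as log2(value + 1) for the 7512 genes with a mean of at least 10, over the full set of 8 libraries, by limma 3.58.1 under R 4.3.3 (1 mean per group, eBayes with a trend, two-sided, Benjamini-Hochberg over all genes tested, threshold 0.05). The scale understates differences of low genes. As alternatives, edgeR 4.0.16 (quasi-likelihood, TMM) and DESeq2 1.42.0 were run on the recovered reads. Other alternatives were pseudocounts of 5 and 0.2, no filter, a minimum mean of 50, recomputed size factors, quantile normalization, a replicate block, a fit of only the groups compared, and each library left out in turn. Fits were tested on simulated data with the same spread for every gene, which was assumed and not estimated from these data. For HDM in WT, limma recovered 0% of 2-fold changes, 14% of 4-fold and 70% of 8-fold. The changed genes were drawn at random from all genes tested, whose median mean was 26.5 normalized counts, against 70.4 for the members tested. The rates were not measured for members alone. A member that did not pass can still differ. Intervals of shares are exact (Clopper-Pearson, 95%) and, like the limit of 3 reads, hold for counting error alone: without molecular identifiers, several reads can stem from 1 molecule.

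The members and gene lists were chosen with earlier results of these data known. Values per library are given for members that passed in any comparison, for the 3 of smallest p in each of the 5 pairwise or interaction comparisons, and for 14 members followed whatever their values (Ern1, Eif2ak3, Atf6, Xbp1, Atf4, Ddit3, Hspa5, Hsp90b1, Calr, Pdia4, Derl3, Sdf2l1, Creld2 and Manf). Values of Sel1l per library are given outside this rule, chosen after they were seen. From the other lists, genes that passed and up to 2 more of smallest p could be named. The comparison of genotypes averaged over treatment was added after the values of Herpud1 were seen. The symbols Ufd1l, Vimp and Selk were not matched in the table, and 17 of 20 other degradation genes were tested.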

Additional observations from a re-analysis of the deposited data

How the results depend on the processing

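In groups of 2 shallow libraries, few genes reach the threshold, and the calls on members depended on the fit. The share of all genes that passed in the same fit is given in parentheses. For HDM in WT, 3 members passed with a pseudocount of 5 (1.44%), a minimum mean of 50 (4.27%), DESeq2 (1.78%) or only the groups compared (2.53%), 1 with quantile normalization (1.34%), and 0 to 3 with a library left out. For cKO against WT under HDM, 1 passed with a pseudocount of 5 (1.32%), a minimum mean of 50 (4.71%), quantile normalization (1.28%), edgeR (0.719%), DESeq2 (1.68%) or only the groups compared (1.89%), and 0 to 1 with a library left out. For HDM averaged over genotype, 2 passed with a minimum mean of 50 (3.27%) or DESeq2 (1.41%), and 0 to 2 with a library left out. For genotype averaged over treatment, 1 passed with a pseudocount of 5 (0.413%), a minimum mean of 50 (2.05%), quantile normalization (0.333%), edgeR (0.28%) or DESeq2 (0.892%), and 0 to 1 with a library left out. With a library left out, 0 to 1 passed for HDM in cKO and for genotype under PBS, and 0 to 0 for the interaction. A minimum mean of 50 tests fewer genes; the cause of the other differences was not tested. The members' median log2 difference was 0.34 with quantile normalization for HDM in WT. It was -0.16 with a minimum mean of 50 and -0.027 with quantile normalization for genotype under HDM, 0 with no filter and 0.021 with edgeR for genotype under PBS, -0.38 with no filter or a minimum mean of 50 and -0.20 with quantile normalization for the interaction, and 0.21 with a minimum mean of 50, edgeR or DESeq2 for HDM averaged over genotype. With a library left out the medians ranged from 0.41 to 0.47 for HDM in WT, 0.071 to 0.25 for HDM in cKO, -0.13 to 0.013 for genotype under HDM, 0.057 to 0.28 for genotype under PBS, -0.33 to -0.14 for the interaction, 0.27 to 0.32 for HDM averaged over genotype and -0.017 to 0.066 for genotype averaged over treatment. Over 32 pairs of a member and a comparison, 560 alternative values gave 516 on the same side of the threshold with the same direction, 42 that newly passed and 2 that turned sign, both for Calr under HDM in cKO (-0.0041 with DESeq2 and -0.051 without cKO HDM replicate 2; with each library left out in turn, -0.051 to 0.060), where the value was near 0. No pair passed in the fit as reported, so no call could be lost. Many of these values could not turn sign either. Recomputed size factors, the replicate block and a fit of only the groups compared left the differences as they were. So did leaving out a library of a group that was not compared. Leaving out 1 library moved 13 of the 32 differences by over 1.5 times, among them Atf4 for HDM in WT (0.78 to 1.67) and Xbp1 for HDM in cKO (0.33 to 0.88). Same-numbered libraries did not deviate together (correlations of -0.0164 to 0.0182 over genes), so the numbers are not taken as pairs. With the replicate block, 0 members passed in any of the 7 comparisons, as without it, and the median for HDM in WT was 0.41.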

Other observations

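Heat shock proteins of the cytosol and mitochondria, which fold proteins outside the ER, had mostly higher values under HDM in cKO. Of 14 genes, 13 had a positive difference in cKO, with a median of 0.85 against 0.10 over all genes. In WT 11 were positive, with a median of 0.35 against -0.03. Among all 7512 genes tested, 4169 were positive in cKO and 3645 in WT. None passed with limma in either genotype, and at an unadjusted p under 0.05 there were 3 higher genes in cKO (5.38% of all genes were) and 1 in WT (4.5%). Hsp90aa1, the inducible cytosolic HSP90, stood at 224 and 216 normalized counts in the WT PBS libraries, 313 and 278 in WT HDM, 174 and 239 in cKO PBS, and 410.0 and 333 in cKO HDM. All 4 HDM libraries were above all 4 PBS libraries, and the cKO difference was 0.86 ± 0.25 (limma, adjusted p = 0.420).

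Hsph1, an exchange factor of the cytosolic HSP70, was at 76.5 and 110.0 in WT PBS, 180.0 and 92.8 in WT HDM, 97.6 and 161 in cKO PBS, and 363 and 212 in cKO HDM. Both cKO HDM libraries were the highest, with a cKO difference of 1.14 ± 0.39 (limma, adjusted p = 0.534). Hspa8, the constitutive HSP70, was at 204 and 166 in WT PBS, 275 and 286 in WT HDM, 286 and 352 in cKO PBS, and 400 and 339 in cKO HDM, so that its lowest libraries were those of WT PBS. The difference of the heat shock list between genotypes, the interaction, had a median of 0.48 against 0.16 over all genes. Of its 14 genes, 12 were positive, as were 4203 of all 7512 genes, and 0 passed the threshold. The ER chaperones had a median interaction of -0.35.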
